A study of Mus musculus with 24 samples.

Results

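Mouse CD4 T cells with Raptor targeted for deletion were compared with wild-type CD4 T cells after 24 h of stimulation through CD3 and CD28. These were 8 of the 24 samples of the series. The samples were taken by their titles, which give the genotype and 24 h of stimulation. They were 4 samples of CD4(cre)Raptor(fl/fl) cells, called Raptor-deficient here, set against 4 samples of wild-type cells, labelled WT and of the strain C57BL/6. In Raptor-deficient cells at 24 h, the genes of DNA replication and mitosis were far lower than in wild-type cells, with 16.5-fold lower intensity for the proliferation marker Mki67 and 10.6-fold lower intensity for the replication licensing factor Cdc6. Genes of glycolysis, nucleotide and lipid synthesis and the mitochondrial ribosome were lower as well. The chemokine gene Xcl1, the chemokine receptor gene Ccr8, genes of the resting T cell such as Klf2 and Txnip, and several transcription factor genes were higher.

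Raptor is the subunit that defines mTORC1, a complex of the kinase mTOR that senses growth factors and amino acids and switches on the synthesis of protein, nucleotides and lipids. It works from the lysosome surface, where the Rag GTPases recruit it, and it keeps the transcription factors TFEB and TFE3 out of the nucleus. Naive T cells are small and quiescent, and stimulation through the T cell receptor and CD28 makes them grow, raise glycolysis and mitochondrial mass, and enter the cell cycle after a lag. The series asked how far this exit from quiescence depends on Raptor.

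Spleen and peripheral lymph nodes gave the cells, which were flow sorted as naive T cells (CD4+, CD44lo and CD25-, among other markers). Plate-bound anti-CD3 and anti-CD28 then stimulated them. Both groups share the sort, the antibodies and the 24 h of culture. In the Raptor-deficient cells the Cre recombinase is driven by the Cd4 promoter, which is active from the thymus on. The floxed Raptor gene is thus meant to be deleted before the cells are sorted, which was not tested here. The wild-type label names neither Cre nor floxed alleles, and the Raptor-deficient label names no strain, so the effects of Cre, of strain and of the deletion cannot be told apart. Age and sex are not given in the sources used here. Other samples of the series, 4 of each genotype unstimulated and 4 of each at 8 h, enter below only where a difference at 24 h is set against theirs.

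RNA was measured on arrays, and the deposited values are log2 intensities after robust multi-array averaging (RMA), so a difference of 1 is a 2-fold difference. The medians of the 8 arrays lay between 5.15 and 5.24. The median of all gene values, 5.51, serves as a mark of dim signal: where a group mean lies under it, the fold is that of the measured intensities only. Precision is limited by having 4 arrays a group. Principal component 1 of the 8 samples held 67.2% of the variance and placed the Raptor-deficient samples between -27.9 and -19.6 and the wild-type samples between 20.8 and 28.0. Nothing in the labels says that the 4 samples of a group came from separate mice, so a p-value here sets a difference against a spread that may be partly technical.

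Replicate 1 of both groups stood apart and carried liver transcripts. Alb, the serum albumin gene, measured 9.11, 6.30, 6.22 and 6.36 on the log2 scale in Raptor-deficient samples and 9.02, 6.42, 6.38 and 6.41 in wild-type samples. Mup3, which encodes a major urinary protein made in liver, gave log2 intensities of 7.40, 2.18, 2.03 and 2.06 in Raptor-deficient samples and 6.97, 2.30, 2.14 and 2.08 in wild-type samples. Apoa1, an apolipoprotein, stood at 7.82, 4.49, 4.91 and 4.31 (log2 intensity) in Raptor-deficient samples, against 7.67, 4.56, 4.47 and 4.50 in wild-type samples. In each group replicate 1 was the highest sample and the other 3 lay together, and replicate 1 reached similar levels in both groups. The log2 intensities of the 15 measured liver genes summed to 61.4 to 94.7 in Raptor-deficient samples and to 61.1 to 92.6 in wild-type samples, and 0 of them were called by limma at 24 h, also 0 at an unadjusted p under 0.05. With the replicate number as a block 2 liver genes were called higher. Counted against the mean of the other 3, replicate 1 had 34 genes at least 2-fold away in the Raptor-deficient group and 31 in the wild-type group, and the other 6 samples had 6 to 16. Every count below was therefore repeated without replicate 1 of both groups.

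**Figure D1:**
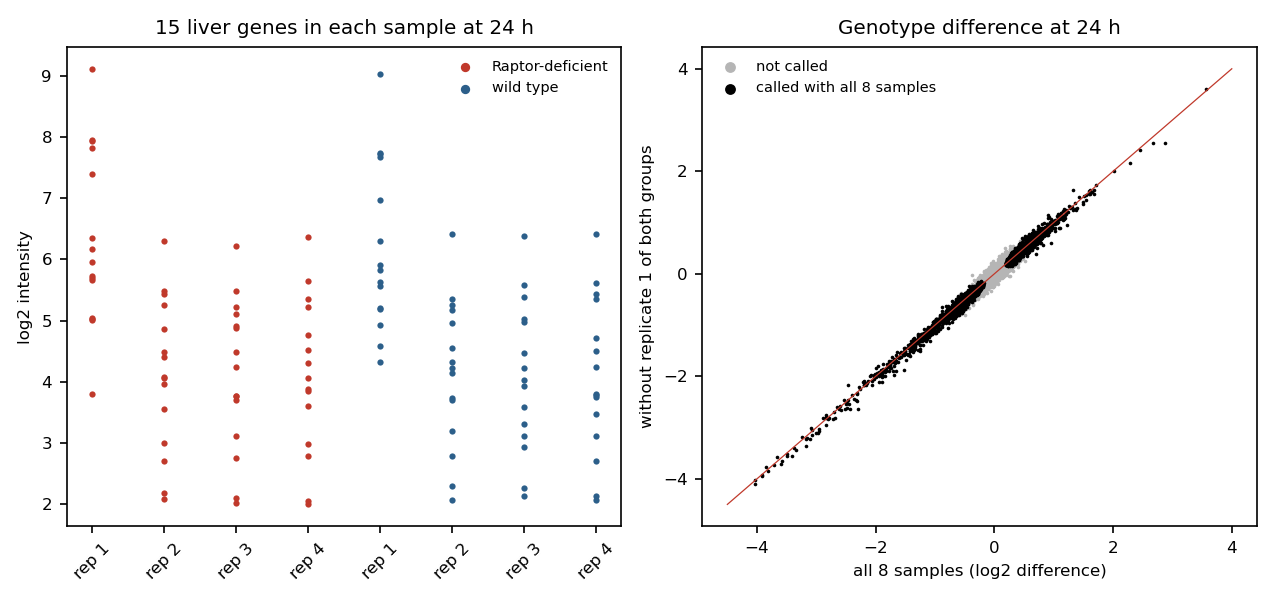
Left, log2 intensity of 15 liver genes (points) in each of the 4 Raptor-deficient and 4 wild-type samples at 24 h, in which replicate 1 of both groups lies above the rest. Right, the log2 difference of each gene with all 8 samples (x axis) and without replicate 1 of both groups (y axis), where the line marks equal values and 3693 of the 4670 called genes (black) stayed called.

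The targeted gene Rptor was lower in Raptor-deficient cells but still measured. Rptor had log2 intensities of 6.25, 6.60, 6.45 and 6.48 in Raptor-deficient samples, against 7.07, 6.91, 7.15 and 7.21 in wild-type samples. All Raptor-deficient samples lay under all wild-type samples, with a difference of -0.64, SE 0.09, adjusted p = 0.000332 by limma over all genes, and an adjusted p of 0.00262 without replicate 1 of both groups. In unstimulated cells the Rptor difference was -0.62 and not called by limma (adjusted p = 0.075), and at 8 h it was -1.01 (adjusted p = 0.000292). The position of the 2 Rptor probe sets relative to the deleted exon is not known, so these values do not give the extent of the deletion. Mtor, the kinase of the complex, measured 8.04, 8.23, 8.18 and 8.15 on the log2 scale in Raptor-deficient samples and 8.31, 8.19, 8.24 and 8.22 in wild-type samples, and the groups overlapped (-0.09, SE 0.07, adjusted p = 0.425). Rictor, the subunit that defines the other mTOR complex, gave log2 intensities of 7.98, 7.89, 7.66 and 7.87 in Raptor-deficient samples and 7.19, 7.27, 7.01 and 7.23 in wild-type samples. Here the groups did not overlap and the Raptor-deficient samples were higher (0.67, SE 0.09, adjusted p = 0.00016).

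Of 17097 genes, 4670 were called at an adjusted p under 0.05 by limma with Benjamini-Hochberg adjustment, which is 27.3% of all genes. Of these, 1913 (11.2% of all genes) were higher and 2757 (16.1%) lower in Raptor-deficient cells. Called genes with a difference of at least 2-fold numbered 409, with 67 higher and 342 lower. The median difference over all genes was 0.01. Of the 8650 genes whose mean over the 8 samples reached the dim mark, 1761 rose and 2736 fell in a fit of their own. These shares are larger than those over all genes. Most members of the pathway lists below were bright, so the shares over all genes are a low background for them. Brackets after a gene give its log2 difference, Raptor-deficient minus wild-type at 24 h, with its standard error (SE) and adjusted p, or the log2 difference alone. In fits without replicate 1 of both groups 3940 genes were called, 1523 higher and 2417 lower. The largest falls, chosen by a rule stated with the methods, were in Mki67, Birc5, Esco2, Aurkb, Cep55, E2f8, Ube2c, Cenpf, Ccna2 and Pclaf, and lay between -4.04 and -3.58. The largest rises were in Xcl1, Slc15a2, Akr1c18, Igkj1, Ccr8, Trpm1, Ifit1, Lad1, Ndrg1 and Neat1, and lay between 1.65 and 3.56.

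**Figure D2:**
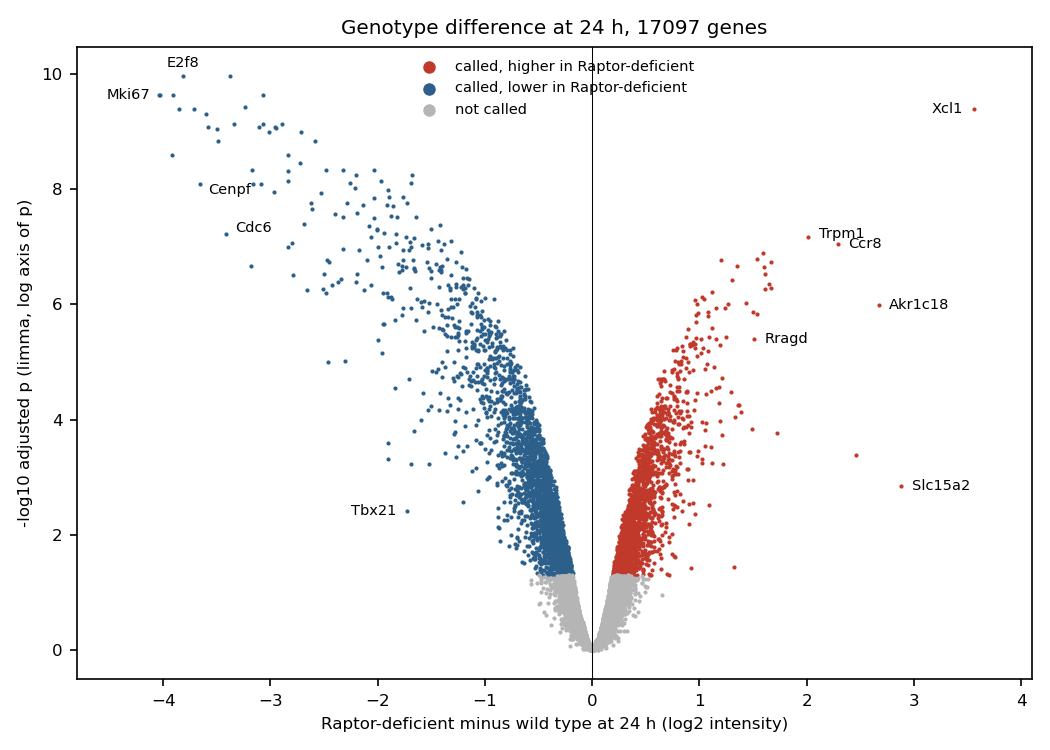
Each point is 1 of 17097 genes, with the log2 difference between 4 Raptor-deficient and 4 wild-type samples at 24 h on the x axis and -log10 of the adjusted p from limma on the y axis. The widest fall is -4.04 (Mki67) and the widest rise 3.56 (Xcl1).

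Of the 30 pathway lists, mitosis had the lowest median difference. Of 50 measured genes, 49 fell and 0 rose in Raptor-deficient cells, beside 16.1% and 11.2% of all genes, and the median difference was -2.04. The 1 gene not called was Smc4, a condensin subunit, at 0.02. Mki67, which marks cycling cells, stood at 6.91, 6.67, 7.19 and 6.99 (log2 intensity) in Raptor-deficient samples, against 11.02, 10.96, 10.97 and 10.97 in wild-type samples. The wild-type samples lay close together and the groups lay far apart, a difference of -4.04, SE 0.10, adjusted p = 2.3e-10. Birc5, or survivin, which belongs to the chromosomal passenger complex, had log2 intensities of 5.98, 5.87, 5.84 and 5.70 in Raptor-deficient samples, against 9.77, 9.73, 10.13 and 9.88 in wild-type samples. Aurkb, the kinase of that complex, measured 4.26, 4.22, 4.55 and 4.14 on the log2 scale in Raptor-deficient samples and 8.12, 8.28, 8.20 and 8.20 in wild-type samples. Neither gene had overlapping groups, with differences of -4.03, SE 0.10, adjusted p = 2.3e-10 for Birc5 and -3.91, SE 0.09, adjusted p = 2.3e-10 for Aurkb. The kinetochore genes Spc25 (-3.07, SE 0.08, adjusted p = 2.3e-10) and Cenpf (-3.66, SE 0.15, adjusted p = 8.21e-09), the S phase and mitotic cyclin gene Ccna2 (-3.60, SE 0.10, adjusted p = 5.01e-10) and Ube2c, which carries ubiquitin to the anaphase-promoting complex (-3.71, SE 0.10, adjusted p = 4.02e-10), fell with them. Falls of like size were seen in Cep55, needed for the final cut between daughter cells (-3.85, SE 0.10, adjusted p = 4.01e-10), and in Esco2, which acetylates cohesin during S phase (-3.92, SE 0.14, adjusted p = 2.56e-09). The Raptor-deficient means of Aurkb, Cep55, Cenpf, Spc25 and Esco2 lay under the dim mark, so their folds are those of the measured intensities. With replicate 1 of both groups left out, 48 of the 50 fell and 0 rose. In RNA from a whole culture, fewer cycling cells and less of these transcripts per cell cannot be told apart.

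Of 43 DNA replication genes, 42 fell and 1 rose, with a median of -1.24, and 42 fell and 0 rose without replicate 1 of both groups. Cdc6, which loads the replicative helicase, gave log2 intensities of 6.08, 5.26, 6.20 and 5.74 in Raptor-deficient samples and 9.07, 9.18, 9.42 and 9.24 in wild-type samples. The groups were far apart, although Raptor-deficient replicate 2 was lower than the other 3 (-3.41, SE 0.17, adjusted p = 5.9e-08). Cdc45, a part of the active helicase, stood at 5.04, 5.18, 5.31 and 5.08 (log2 intensity) in Raptor-deficient samples, against 7.49, 7.45, 7.29 and 7.20 in wild-type samples. The groups did not overlap (-2.21, SE 0.09, adjusted p = 9.61e-09). Mcm10 (-2.29, SE 0.10, adjusted p = 1.77e-08), which activates that helicase, Rfc3 (-1.73, SE 0.08, adjusted p = 1.76e-08), a subunit of the clamp loader, and Uhrf1 (-2.14, SE 0.09, adjusted p = 1.9e-08), which guides maintenance DNA methylation, fell too. Pclaf, which binds the sliding clamp, fell by 3.58 on the log2 scale. The Raptor-deficient means of Cdc45, Mcm10 and Pola1 lay under the dim mark. The gene that rose was Orc1, a subunit of the origin recognition complex, at 0.26, SE 0.09, adjusted p = 0.0461. Probe sets of this gene were called in opposite directions, and it was not called without replicate 1 of both groups (adjusted p = 0.0544), nor without any 1 of wild-type replicates 1, 2 and 3 or Raptor-deficient replicates 2 and 4.

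Promoters of these genes are shown because the data concern genes that move together and because 2 short words are known from cell cycle promoters. E2F factors bind words such as TTGGCGC, and the variants TTCCCGC, also TTCGCGC and lastly TTGCCGC were counted with it. The cell cycle genes homology region (CHR), bound by the MuvB complexes, is TTTGAA. All were searched on both strands in RefSeq promoters of assembly GRCm38.p6, from 250 bases before to 50 bases after the start, in the 11088 tested genes with 1 promoter. An E2F word was found in 17 of 27 DNA replication promoters (63.0%) and in 14.4% of all promoters. A CHR word was found in 28 of 36 mitosis promoters (77.8%) and in 13.4% of all promoters. Of 249 promoters of genes called lower by at least 2-fold, 36.1% held an E2F word and 28.1% a CHR word. Of 41 promoters of genes called higher by at least 2-fold, 9.76% (4) held an E2F word and 24.4% (10) a CHR word. A match is a description of the sequence and not a mapped site. The 2 members with the widest differences and a match are printed per list, 5′ to 3′ on the gene's strand, with the matches in capitals. Cdc6 lies at chr11:98907901-98908200 on the plus strand with its match starting at -138 from the start. Pola1, a subunit of the primase complex, lies at chrX:93632106-93632405 on the minus strand with 4 E2F matches.
Cdc6: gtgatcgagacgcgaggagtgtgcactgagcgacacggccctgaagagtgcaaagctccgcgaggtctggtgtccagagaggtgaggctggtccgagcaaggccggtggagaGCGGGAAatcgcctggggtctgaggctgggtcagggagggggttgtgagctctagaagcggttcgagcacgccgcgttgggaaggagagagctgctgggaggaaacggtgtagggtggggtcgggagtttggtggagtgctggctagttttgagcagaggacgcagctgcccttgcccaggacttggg
Pola1: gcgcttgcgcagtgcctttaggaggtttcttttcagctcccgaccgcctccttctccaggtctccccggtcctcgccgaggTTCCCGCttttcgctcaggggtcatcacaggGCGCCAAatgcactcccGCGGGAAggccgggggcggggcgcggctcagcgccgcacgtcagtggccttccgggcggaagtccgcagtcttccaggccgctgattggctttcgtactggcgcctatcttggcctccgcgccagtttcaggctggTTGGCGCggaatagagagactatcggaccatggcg
Mki67 lies at chr7:135716330-135716629 on the minus strand with 2 CHR matches, and Ube2c at chr2:164769679-164769978 on the plus strand with 1 match, read on the opposite strand, starting at -29.
Mki67: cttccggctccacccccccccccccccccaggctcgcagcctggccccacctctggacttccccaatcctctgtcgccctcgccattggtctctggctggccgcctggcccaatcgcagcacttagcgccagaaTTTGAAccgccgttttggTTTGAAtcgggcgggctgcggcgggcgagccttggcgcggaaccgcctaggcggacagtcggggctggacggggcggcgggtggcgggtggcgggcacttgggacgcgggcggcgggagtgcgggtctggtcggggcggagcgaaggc
Ube2c: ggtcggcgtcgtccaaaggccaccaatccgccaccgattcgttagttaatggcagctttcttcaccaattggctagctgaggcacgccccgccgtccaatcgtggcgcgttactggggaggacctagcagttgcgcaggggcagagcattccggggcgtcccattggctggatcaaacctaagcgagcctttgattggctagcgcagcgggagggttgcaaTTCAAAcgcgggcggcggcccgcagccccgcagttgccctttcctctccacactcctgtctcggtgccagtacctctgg
Pola1 had log2 intensities of 4.49, 4.80, 5.54 and 4.94 in Raptor-deficient samples, against 6.93, 6.91, 7.02 and 6.73 in wild-type samples, and the groups did not overlap (-1.96, SE 0.17, adjusted p = 6.95e-06).

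Among 27 G1 cyclins, cell cycle inhibitors and E2F family members, 17 fell and 4 rose, with a median of -0.38. When replicate 1 of both groups was left out, 16 fell and 4 rose. E2f8, a repressor that is itself switched on in S phase, measured 4.96, 4.83, 5.09 and 4.88 on the log2 scale in Raptor-deficient samples and 8.68, 8.69, 8.85 and 8.79 in wild-type samples. Samples of 1 group lay close to one another and the groups were far apart (-3.81, SE 0.08, adjusted p = 1.08e-10). The Raptor-deficient means of E2f8 and E2f2 lay under the dim mark. The activators E2f2 (-2.48, SE 0.09, adjusted p = 4.75e-09) and E2f3 (-1.90, SE 0.08, adjusted p = 1.05e-08) fell, and so did Ccne1, cyclin E1, which drives entry into S phase (-2.01, SE 0.10, adjusted p = 4.87e-08). The 4 that rose were the inhibitors Cdkn1a (0.90) and Cdkn1b (0.71), the pocket protein gene Rbl2 (0.50) and the transcription factor gene Myb (1.15). Cdkn1b, or p27, which holds resting cells out of S phase, gave log2 intensities of 9.63, 9.51, 9.32 and 9.57 in Raptor-deficient samples and 8.87, 8.77, 8.68 and 8.86 in wild-type samples. All Raptor-deficient samples lay above all wild-type samples (0.71, SE 0.08, adjusted p = 7.29e-05).

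**Figure D3:**
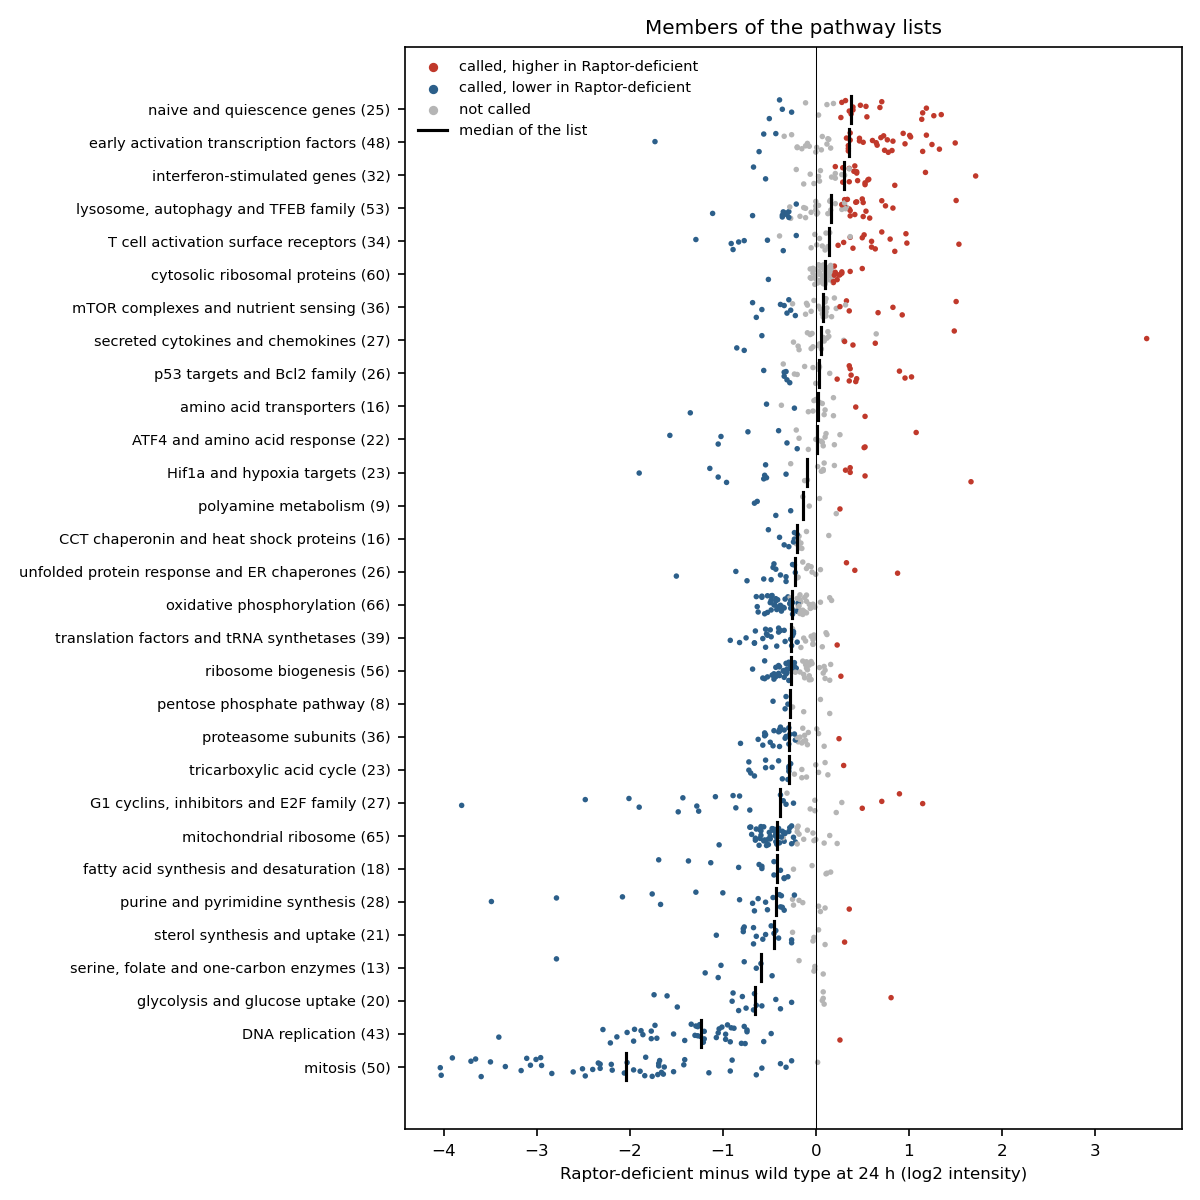
Log2 difference between Raptor-deficient and wild-type cells at 24 h (x axis) of every measured member of 30 pathway lists (rows, number of members in brackets), with the list median as a black bar. Medians run from 0.38 for the naive and quiescence genes to -2.04 for mitosis.

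Glycolysis and glucose uptake genes were lower as a group. Of 20 measured genes 15 fell and 1 rose, with a median of -0.65, and the same counts held without replicate 1 of both groups. Tpi1, triose phosphate isomerase, stood at 8.30, 8.07, 8.47 and 8.17 (log2 intensity) in Raptor-deficient samples, against 9.78, 10.02, 10.13 and 10.06 in wild-type samples. Its groups did not overlap, and wild-type replicate 1 was the lowest of its group (-1.74, SE 0.10, adjusted p = 2.26e-07). Slc2a1, the glucose transporter Glut1, had log2 intensities of 8.83, 8.84, 9.16 and 8.79 in Raptor-deficient samples, against 9.59, 9.90, 9.79 and 9.65 in wild-type samples. Raptor-deficient replicate 3 was the highest of its group and still under every wild-type sample (-0.83, SE 0.10, adjusted p = 8.26e-05). Hk2, the hexokinase that traps glucose in the cell, measured 8.61, 8.40, 8.81 and 8.58 on the log2 scale in Raptor-deficient samples and 9.10, 9.30, 9.33 and 9.31 in wild-type samples (difference -0.66, SE 0.09, adjusted p = 0.000263), again without overlap. Ldha, which makes lactate (-0.89, SE 0.08, adjusted p = 5.41e-06), and the phosphofructokinase genes Pfkl (-0.90, SE 0.08, adjusted p = 6.07e-06) and Pfkp (-0.79, SE 0.07, adjusted p = 1.08e-05) were lower in all 4 samples. The 1 gene that rose was Eno3, the muscle form of enolase, at 0.81, SE 0.12, adjusted p = 0.000439. The 4 genes not called included the transporter Slc2a3 at 0.08.

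Hif1a encodes the transcription factor that raises glycolytic genes in low oxygen and in activated T cells. Hif1a gave log2 intensities of 9.06, 8.73, 9.09 and 8.90 in Raptor-deficient samples and 9.95, 9.86, 9.85 and 9.94 in wild-type samples. No sample overlapped and the difference was -0.96, SE 0.09, adjusted p = 8.95e-06. The list of 23 genes around Hif1a held hypoxia targets and also genes of the oxygen-sensing pathway itself, such as Arnt, Vhl and Egln2. Most glycolytic genes were counted in the glycolysis list instead. The list was mixed, with 9 lower, 5 higher and a median of -0.09. Egln3, an oxygen-sensing hydroxylase (-1.90, SE 0.29, adjusted p = 0.000477), Higd1a, a small mitochondrial protein (-1.05, SE 0.10, adjusted p = 1.24e-05), and Bnip3, a mitophagy receptor (-1.14, SE 0.11, adjusted p = 1.71e-05), fell. Ndrg1, a stress-induced gene that low oxygen raises, stood at 7.69, 7.28, 7.71 and 7.50 (log2 intensity) in Raptor-deficient samples, against 5.92, 5.83, 5.89 and 5.88 in wild-type samples. It was higher in Raptor-deficient cells in every sample (1.67, SE 0.10, adjusted p = 1.84e-07). The other genes that rose were Bnip3l (0.53), Mxi1 (0.37), Kdm3a (0.37) and Arnt (0.32). In fits without replicate 1 of both groups, the counts were again 9 and 5.

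Mitochondrial gene groups fell by small amounts. Of 65 mitochondrial ribosome genes 51 fell and 0 rose, with a median of -0.42. With replicate 1 of both groups left out, 45 fell and 0 rose. Mrpl18, a large subunit protein, had log2 intensities of 9.22, 9.32, 9.43 and 9.16 in Raptor-deficient samples, against 10.30, 10.28, 10.41 and 10.31 in wild-type samples. The samples of each group lay close to one another and the groups were far apart (-1.04, SE 0.08, adjusted p = 1.64e-06). Of 66 oxidative phosphorylation genes 36 fell and 0 rose, with a median of -0.25. The count was 26 without replicate 1 of both groups. Cycs, cytochrome c, measured 10.51, 10.49, 10.67 and 10.58 on the log2 scale in Raptor-deficient samples and 11.19, 11.18, 11.25 and 11.16 in wild-type samples (difference -0.64, SE 0.07, adjusted p = 3.57e-05). The groups did not overlap. Ndufa9 (-0.52, SE 0.07, adjusted p = 0.000255) and Ndufa5 (-0.44, SE 0.07, adjusted p = 0.000357) of complex I and Uqcrq of complex III (-0.58, SE 0.08, adjusted p = 0.000246) fell as well. Uqcrq was at -0.16 and not called with the mean of its probe sets (adjusted p = 0.0849). Of 23 tricarboxylic acid cycle genes 14 fell and 1 rose, with a median of -0.29, and 13 and 1 without replicate 1 of both groups. They included fumarase, Fh1 (-0.72, SE 0.08, adjusted p = 4.9e-05), and the dehydrogenase subunits Idh3a (-0.72, SE 0.09, adjusted p = 7.08e-05) and Ogdh (-0.70, SE 0.10, adjusted p = 0.000191), and the gene that rose was Idh3g, at 0.30. Suclg2, a subunit of succinate-CoA ligase, fell too (-0.66, SE 0.10, adjusted p = 0.000491), a call lost when all 24 samples shared 1 fit.

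Genes that make ribosomes and genes that are part of them did not move alike. Of 56 ribosome biogenesis genes 33 fell and 1 rose, with a median of -0.27. When replicate 1 of both groups was left out, 25 fell and 0 rose, and with all 24 samples in the fit 21 fell. Bysl, which matures the small subunit, gave log2 intensities of 8.30, 8.22, 8.34 and 8.07 in Raptor-deficient samples and 8.72, 9.0, 9.0 and 8.93 in wild-type samples. The groups did not overlap (-0.68, SE 0.09, adjusted p = 0.000143). The gene that rose was Polr1c (0.27, SE 0.08, adjusted p = 0.0279), a subunit of RNA polymerases I and III, and it was not called without Raptor-deficient replicate 1 or wild-type replicate 2, 3 or 4. Nop2 (-0.55, SE 0.09, adjusted p = 0.000489), an RNA methyltransferase of the nucleolus, and Nip7 (-0.43, SE 0.06, adjusted p = 0.000391), a processing factor, were lower in all 4 samples. Of 60 cytosolic ribosomal protein genes, in contrast, 12 rose (20.0%) and 1 fell, with a median of 0.10, beside 11.2% and 16.1% of all genes. All 60 had a group mean at or above the dim mark. With dim genes left out, 1761 of 8650 genes rose, so the share that rose was near that of bright genes. Rps19 stood at 12.09, 12.05, 12.02 and 12.08 (log2 intensity) in Raptor-deficient samples, against 11.72, 11.66, 11.64 and 11.74 in wild-type samples, and the groups did not overlap (0.37, SE 0.06, adjusted p = 0.00106). Rps14 (0.28, SE 0.06, adjusted p = 0.00534) and Rps15a (0.50, SE 0.08, adjusted p = 0.00043) rose, and Rpl14 was the gene that fell (-0.51, SE 0.09, adjusted p = 0.00081). The Rps15a means were 5.91 in Raptor-deficient and 5.42 in wild-type cells, the latter under the dim mark. The count of 12 depended on single libraries: it was 5 without replicate 1 of both groups, 6 without Raptor-deficient replicate 1, 6 without Raptor-deficient replicate 4, 6 without wild-type replicate 2 and 7 without wild-type replicate 1, 3 or 4. Many ribosomal protein genes have near-identical pseudogenes that a probe set may also read.

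Of 39 translation factor and tRNA synthetase genes 25 fell and 1 rose, with a median of -0.27. In fits without replicate 1 of both groups, 21 fell and 0 rose. Aars, alanyl-tRNA synthetase, had log2 intensities of 7.74, 7.56, 7.84 and 7.97 in Raptor-deficient samples, against 8.67, 8.71, 8.74 and 8.67 in wild-type samples. All Raptor-deficient samples were lower (-0.92, SE 0.09, adjusted p = 1.24e-05). The synthetase genes Gars (-0.65, SE 0.07, adjusted p = 4.62e-05), Hars (-0.57, SE 0.06, adjusted p = 4.83e-05) and Farsb (-0.66, SE 0.07, adjusted p = 4.91e-05) fell too. The gene that rose was Eef2, elongation factor 2, at 0.23.

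Lipid synthesis genes were lower. Of 21 sterol synthesis and uptake genes 15 fell and 1 rose, with a median of -0.45, and 12 fell and 0 rose without replicate 1 of both groups. Fdps, which makes farnesyl diphosphate, measured 7.40, 7.40, 7.50 and 7.66 on the log2 scale in Raptor-deficient samples and 8.54, 8.52, 8.64 and 8.52 in wild-type samples. The wild-type samples lay close together and the groups did not overlap (-1.07, SE 0.08, adjusted p = 1.36e-06). Ebp (-0.67, SE 0.06, adjusted p = 1.23e-05) and Sc5d (-0.78, SE 0.09, adjusted p = 6.4e-05) of the late pathway and Stard4 (-0.77, SE 0.07, adjusted p = 1.36e-05), a sterol carrier, followed. The gene that rose was Insig2 (0.31), which holds back sterol synthesis, and it was not called without wild-type replicate 1 or 3 or Raptor-deficient replicate 4. Srebf2, the transcription factor of sterol genes, gave log2 intensities of 9.53, 9.65, 9.70 and 9.55 in Raptor-deficient samples and 9.55, 9.41, 9.57 and 9.79 in wild-type samples, and its groups overlapped (0.03, SE 0.09, adjusted p = 0.858). Of 18 fatty acid synthesis and desaturation genes 13 fell and 0 rose, with a median of -0.42 and the same counts without replicate 1 of both groups. They included Acaca, acetyl-CoA carboxylase (-0.58, SE 0.07, adjusted p = 6.75e-05), the desaturase gene Fads1 (-0.83, SE 0.08, adjusted p = 1.87e-05), Acsl3, which activates fatty acids (-1.13, SE 0.12, adjusted p = 2.12e-05), and Mid1ip1, a partner of acetyl-CoA carboxylase (-1.37, SE 0.10, adjusted p = 1.68e-06).

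Of 28 purine and pyrimidine synthesis genes 20 fell and 1 rose, with a median of -0.43, and the counts were the same without replicate 1 of both groups. Rrm2, the small subunit of ribonucleotide reductase, which makes DNA precursors, stood at 5.94, 5.81, 6.27 and 5.82 (log2 intensity) in Raptor-deficient samples, against 9.37, 9.44, 9.30 and 9.67 in wild-type samples. The groups lay far apart (-3.49, SE 0.11, adjusted p = 1.44e-09). Rrm1, its large subunit (-1.76, SE 0.07, adjusted p = 1.38e-08), and the salvage kinases Tk1 (-2.08, SE 0.10, adjusted p = 4.34e-08) and Dck (-1.67, SE 0.10, adjusted p = 1.71e-07) fell too. The gene that rose was Rrm2b (0.36), the p53-induced form of the small subunit. Of 13 serine, folate and one-carbon genes 8 fell and 0 rose, with a median of -0.59, and the counts were the same without replicate 1 of both groups. Tyms, thymidylate synthase, which stands in both lists, had log2 intensities of 7.04, 6.54, 7.51 and 7.36 in Raptor-deficient samples, against 9.76, 9.84, 10 and 10 in wild-type samples. Raptor-deficient replicate 2 was the lowest sample and no samples overlapped (-2.79, SE 0.17, adjusted p = 3.13e-07). Phgdh (-1.05, SE 0.08, adjusted p = 2.87e-06) and Psat1 (-1.02, SE 0.08, adjusted p = 3.21e-06) of serine synthesis and Ahcy of the methyl cycle (-0.77, SE 0.07, adjusted p = 1.13e-05) were lower. Of 9 polyamine genes 4 fell and 1 rose, namely Azin1 (-0.63, SE 0.06, adjusted p = 1.71e-05), Srm (-0.66, SE 0.08, adjusted p = 6.08e-05), Odc1 (-0.43, SE 0.07, adjusted p = 0.00109) and Sms (-0.27, SE 0.07, adjusted p = 0.012) against Dhps (0.26), which modifies the factor eIF5A. The call of Sms was lost with all 24 samples in the fit (adjusted p = 0.23) and after cyclic loess (adjusted p = 0.0536). With replicate 1 of both groups left out, and without Raptor-deficient replicate 1 or 3 or wild-type replicate 1 alone, 0 polyamine genes rose. Of 8 pentose phosphate genes 4 fell and 0 rose, led by Pgd (-0.46, SE 0.07, adjusted p = 0.000574). That count was 3 without replicate 1 of both groups, 2 without Raptor-deficient replicate 2 or 4 or wild-type replicate 3 or 4, and 1 with all 24 samples in the fit.

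Amino acid transporter genes moved both ways. Of 16 genes 2 rose and 3 fell, and 3 and 3 without replicate 1 of both groups, shares close to the 11.2% and 16.1% of all genes. Slc7a5, the light chain of the large neutral amino acid transporter, measured 8.29, 8.46, 8.65 and 8.34 on the log2 scale in Raptor-deficient samples and 8.93, 8.92, 9.01 and 8.98 in wild-type samples (difference -0.53, SE 0.09, adjusted p = 0.000649). Slc3a2, its heavy chain, gave log2 intensities of 9.52, 9.58, 9.49 and 9.51 in Raptor-deficient samples and 9.07, 8.99, 9.17 and 9.17 in wild-type samples (difference 0.43, SE 0.07, adjusted p = 0.000773). The groups did not overlap for either gene, the light chain being lower and the heavy chain higher in Raptor-deficient cells. Slc7a1, an arginine transporter, rose (0.53, SE 0.07, adjusted p = 0.000156), and Slc43a3, which is known to carry purine nucleobases, fell (-1.35, SE 0.11, adjusted p = 3.55e-06), as did Slc6a6 (-0.23), a taurine transporter. Among 22 genes of the ATF4 and amino acid response 7 fell (31.8%) and 3 rose (13.6%), beside 16.1% and 11.2% of all genes. Of these 22, 15 had a group mean at or above the dim mark. With dim genes left out, 2736 of 8650 genes fell and 1761 rose, so the share that fell was near that of bright genes. Asns, asparagine synthetase, stood at 3.90, 4.13, 4.24 and 3.83 (log2 intensity) in Raptor-deficient samples, against 5.61, 5.51, 5.82 and 5.45 in wild-type samples. The difference was -1.57, SE 0.11, adjusted p = 8.68e-07, and the Raptor-deficient mean lay under the dim mark. Ddit3, a stress transcription factor also called CHOP, had log2 intensities of 8.47, 8.64, 8.35 and 8.38 in Raptor-deficient samples, against 7.45, 7.39, 7.30 and 7.37 in wild-type samples. It rose (1.08, SE 0.08, adjusted p = 1.56e-06). The others that rose were Slc7a1 and Trib3 (0.52). When replicate 1 of both groups was left out, 6 fell and 2 rose, and without wild-type replicate 3 alone 4 fell.

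Of 26 unfolded protein response and ER chaperone genes 14 fell and 3 rose, with a median of -0.23, and 12 and 2 without replicate 1 of both groups. Sdf2l1, an ER chaperone cofactor, measured 7.65, 7.62, 7.63 and 7.68 on the log2 scale in Raptor-deficient samples and 9.12, 9.27, 9.18 and 9.01 in wild-type samples. The samples of each group lay close together and did not overlap (-1.5, SE 0.07, adjusted p = 4.87e-08). Creld2 (-0.86, SE 0.07, adjusted p = 5.41e-06) and Dnajb11 (-0.74, SE 0.06, adjusted p = 5.77e-06) fell, and Dnajb9 (0.88, SE 0.10, adjusted p = 5.1e-05), Ern1 (0.42) and Xbp1 (0.33) rose. Of 36 proteasome subunit genes 22 fell and 1 rose, with a median of -0.29, and 20 and 0 without replicate 1 of both groups. Psmd13 (-0.81, SE 0.08, adjusted p = 2.02e-05), Psmc4 (-0.62, SE 0.08, adjusted p = 9.28e-05), Psmd6 (-0.57, SE 0.07, adjusted p = 8.77e-05) and Psmd1 (-0.54, SE 0.07, adjusted p = 0.000178) of the regulatory particle fell, and Psme1 (0.25), an interferon-induced activator subunit, rose but was not called without wild-type replicate 4. Of 16 CCT chaperonin and heat shock genes 8 fell and 0 rose, among them Hsp90aa1 (-0.51, SE 0.06, adjusted p = 0.000113) and Hspa8 (-0.39, SE 0.06, adjusted p = 0.00074). That count was 4 without replicate 1 of both groups, 4 after cyclic loess scaling and 5 without any 1 of wild-type replicates 1 to 4 or Raptor-deficient replicates 2 and 4.

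Among 36 genes of the mTOR complexes and nutrient sensing, 7 rose and 9 fell, with a median of 0.07. In fits without replicate 1 of both groups, 6 rose and 6 fell, and 5 fell without wild-type replicate 2 alone or after cyclic loess scaling. Of the 36 genes, 33 had a group mean at or above the dim mark. With dim genes left out, 1761 of 8650 genes rose and 2736 fell, so neither share of the list was above that of bright genes. Rragd, a Rag GTPase and a known target of TFEB and TFE3, gave log2 intensities of 7.79, 7.37, 7.33 and 7.46 in Raptor-deficient samples and 6.32, 5.89, 5.84 and 5.89 in wild-type samples. Replicate 1 was the highest sample of each group and the groups did not overlap (1.51, SE 0.13, adjusted p = 4.04e-06). The difference was also called in unstimulated cells (1.36, adjusted p = 2.53e-06) and at 8 h (1.44, adjusted p = 1.25e-07). Flcn, folliculin, which acts on the RagC and RagD GTPases, stood at 7.08, 6.82, 6.89 and 6.85 (log2 intensity) in Raptor-deficient samples, against 5.96, 5.89, 6.23 and 6.23 in wild-type samples (difference 0.83, SE 0.10, adjusted p = 7.17e-05). Fnip1, its partner, had log2 intensities of 8.32, 8.40, 8.47 and 8.49 in Raptor-deficient samples, against 7.37, 7.43, 7.49 and 7.65 in wild-type samples (difference 0.93, SE 0.08, adjusted p = 5.11e-06). Both genes were higher in all Raptor-deficient samples. Mlst8, a subunit of both mTOR complexes, measured 6.06, 6.45, 6.32 and 6.30 on the log2 scale in Raptor-deficient samples and 6.51, 6.24, 6.16 and 6.30 in wild-type samples, and the groups overlapped (-0.02, SE 0.10, adjusted p = 0.917).

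Of 53 genes of the lysosome, autophagy and the TFEB family 19 rose and 10 fell, with a median of 0.16. With replicate 1 of both groups left out, 17 rose and 7 fell. Gabarap, which tags the autophagosome membrane, gave log2 intensities of 10.07, 10.02, 10.06 and 10.11 in Raptor-deficient samples and 9.35, 9.35, 9.24 and 9.33 in wild-type samples, and the groups did not overlap (0.75, SE 0.07, adjusted p = 6.18e-06). Gabarapl1 stood at 5.98, 6.43, 6.65 and 6.38 (log2 intensity) in Raptor-deficient samples, against 7.25, 7.54, 7.48 and 7.61 in wild-type samples. All Raptor-deficient samples were lower (-1.11, SE 0.13, adjusted p = 6.62e-05). These close relatives moved in opposite directions. Tfeb had log2 intensities of 5.98, 6.08, 6.12 and 6.43 in Raptor-deficient samples, against 6.36, 6.58, 6.28 and 6.47 in wild-type samples, and the groups overlapped (-0.27, SE 0.10, adjusted p = 0.0832). Tfeb was called lower without Raptor-deficient replicate 4 (-0.36, adjusted p = 0.0166) and with dim genes left out (adjusted p = 0.046). The word CACGTG, an E-box to which TFEB binds, was in 14 of 40 promoters of the list (35.0%) and in 9.01% of all promoters. These 40 were counted whatever the direction of their difference. Among all genes called higher by at least 2-fold, the word was in 2 of 41 promoters (4.88%). Among those called lower by at least 2-fold, it was in 25 of 249. Whether TFEB acts on these genes was not tested. The 2 genes of the list with a match and the widest rises are printed with both matches in capitals. Mcoln1, a lysosomal calcium channel, lies at chr8:3500269-3500568 on the plus strand. Atp6v0b, a subunit of the lysosomal proton pump, lies at chr4:117887280-117887579 on the minus strand.
Mcoln1: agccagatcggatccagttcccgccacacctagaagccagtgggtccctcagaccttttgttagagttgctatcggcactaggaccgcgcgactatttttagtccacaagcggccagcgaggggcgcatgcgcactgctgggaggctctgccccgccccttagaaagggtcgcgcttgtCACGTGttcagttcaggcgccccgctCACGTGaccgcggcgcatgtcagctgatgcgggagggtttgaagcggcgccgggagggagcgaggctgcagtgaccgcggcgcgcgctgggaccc
Atp6v0b: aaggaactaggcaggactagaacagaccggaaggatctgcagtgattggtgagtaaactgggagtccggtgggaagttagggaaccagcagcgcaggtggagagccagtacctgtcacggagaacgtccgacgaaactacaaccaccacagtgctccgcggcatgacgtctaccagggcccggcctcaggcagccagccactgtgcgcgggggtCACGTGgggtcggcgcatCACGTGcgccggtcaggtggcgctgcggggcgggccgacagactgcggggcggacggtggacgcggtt
Mcoln1 measured 7.09, 7.15, 7.09 and 7.19 on the log2 scale in Raptor-deficient samples and 6.57, 6.48, 6.82 and 6.64 in wild-type samples (difference 0.50, SE 0.08, adjusted p = 0.000693). Atp6v0b gave log2 intensities of 9.20, 9.25, 9.26 and 9.16 in Raptor-deficient samples and 8.77, 8.92, 8.77 and 8.67 in wild-type samples (difference 0.44, SE 0.07, adjusted p = 0.000865). Neither gene had overlapping groups. Myeloid cells are rich in lysosomes, and 3 of 19 myeloid markers (Lyz2, Camp and Fcer1g) were called higher and 0 lower. The log2 intensities of the myeloid list, of which 4 genes had a group mean at or above the dim mark, summed to 84.2 to 86.6 in Raptor-deficient samples and 82.4 to 83.2 in wild-type samples, and the part of such cells in the lysosome genes was not tested. The count of 3 was 1 without Raptor-deficient replicate 2, and its share is near the 11.2% of all genes. On the myeloid markers themselves, Lyz2 lay between 3.49 and 3.85 in Raptor-deficient samples and between 3.09 and 3.52 in wild-type samples, all under the dim mark.

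Naive and quiescence genes were higher in Raptor-deficient cells. Of 25 measured genes 17 rose and 4 fell, with a median of 0.38, and 16 and 3 without replicate 1 of both groups. Klf2, a transcription factor that keeps naive cells quiescent and recirculating, stood at 8.81, 8.58, 8.23 and 8.51 (log2 intensity) in Raptor-deficient samples, against 7.49, 7.39, 7.32 and 7.36 in wild-type samples. The groups did not overlap (1.14, SE 0.11, adjusted p = 1.22e-05). S1pr1, the receptor by which T cells leave lymph nodes and a target of Klf2, had log2 intensities of 8.12, 7.78, 7.39 and 7.86 in Raptor-deficient samples, against 6.79, 6.54, 6.30 and 6.76 in wild-type samples (difference 1.19, SE 0.15, adjusted p = 0.000105). Txnip, which limits glucose uptake, measured 9.79, 9.94, 9.55 and 9.86 on the log2 scale in Raptor-deficient samples and 8.58, 8.52, 8.42 and 8.56 in wild-type samples (difference 1.27, SE 0.09, adjusted p = 9.89e-07). Both were higher in every Raptor-deficient sample. Klf6 (1.35, SE 0.08, adjusted p = 2.16e-07), a transcription factor gene, and Satb1 (1.15, SE 0.10, adjusted p = 3.98e-06), a chromatin organizer of T cells, rose too. The 4 that fell were Slfn2 (-0.50), Rgs10 (-0.39), Il6ra (-0.36) and Pdlim1 (-0.26).

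**Figure D4:**
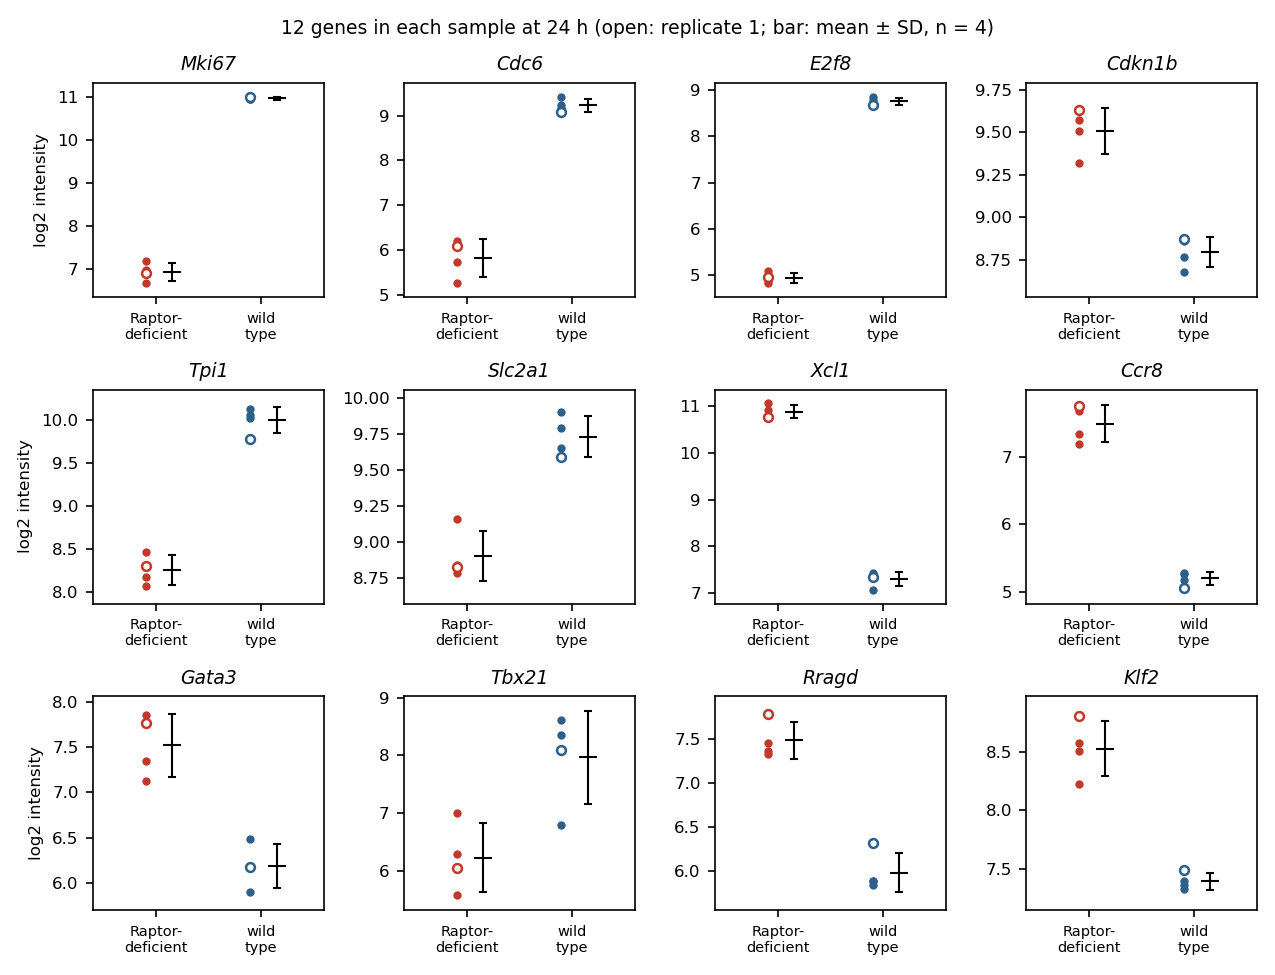
Log2 intensity of 12 genes in each of 4 Raptor-deficient samples (red, left) and 4 wild-type samples (blue, right) at 24 h, with replicate 1 as open circles and the mean ± SD as black bars, on an axis that does not start at 0. The groups overlap in Tbx21 and in none of the other 11 genes.

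Among 34 surface receptors of T cell activation 15 rose and 8 fell, with a median of 0.14. When replicate 1 of both groups was left out, 13 rose and 6 fell. Cd69, an early marker of activation, gave log2 intensities of 9.82, 9.56, 9.75 and 9.58 in Raptor-deficient samples and 8.87, 8.84, 8.83 and 8.78 in wild-type samples. It was higher in every Raptor-deficient sample (0.85, SE 0.08, adjusted p = 8.18e-06), and it was already higher without stimulation (1.22, adjusted p = 6.19e-07). Tnfsf8, the ligand of CD30, stood at 8.49, 8.47, 8.15 and 8.06 (log2 intensity) in Raptor-deficient samples, against 6.68, 6.66, 6.72 and 6.97 in wild-type samples, and the groups did not overlap (1.54, SE 0.11, adjusted p = 1.47e-06). Il2ra, the inducible chain of the IL-2 receptor, had log2 intensities of 10.90, 10.92, 10.90 and 10.88 in Raptor-deficient samples, against 10.39, 10.44, 10.42 and 10.26 in wild-type samples. Its groups were separate and tight (0.52, SE 0.07, adjusted p = 0.000144), and the call was lost when all 24 samples shared 1 fit (adjusted p = 0.121). The costimulatory receptor gene Tnfrsf9 also rose (0.97, SE 0.07, adjusted p = 1.52e-06). Fasl, the death ligand, measured 4.53, 4.87, 5.12 and 5.26 on the log2 scale in Raptor-deficient samples and 6.17, 6.21, 6.23 and 6.32 in wild-type samples. All Raptor-deficient samples were lower (-1.29, SE 0.13, adjusted p = 2.17e-05), and their mean was dim. Cd200, an inhibitory ligand, fell as well (-0.91, SE 0.08, adjusted p = 6.73e-06). Il4ra gave log2 intensities of 7.85, 7.34, 7.60 and 7.52 in Raptor-deficient samples and 7.50, 7.41, 7.51 and 7.48 in wild-type samples, and the groups overlapped (0.10, SE 0.10, adjusted p = 0.513).

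Of 27 secreted cytokine, chemokine and effector genes 5 rose (18.5%) and 3 fell (11.1%), beside 11.2% and 16.1% of all genes. The median was 0.06, and the counts were the same without replicate 1 of both groups. Xcl1, the chemokine lymphotactin, stood at 10.76, 11.05, 10.91 and 10.76 (log2 intensity) in Raptor-deficient samples, against 7.34, 7.35, 7.44 and 7.08 in wild-type samples. The groups were 3.56 apart on average and samples of 1 group lay close to one another (3.56, SE 0.10, adjusted p = 4.01e-10), or 11.8-fold. Ccl22, a ligand of the receptor CCR4, had log2 intensities of 7.48, 6.67, 7.04 and 6.59 in Raptor-deficient samples, against 5.63, 5.58, 5.63 and 4.99 in wild-type samples. All Raptor-deficient samples were higher (1.49, SE 0.19, adjusted p = 0.000144). The others that rose were Ccl5 (0.64), Csf2 (0.40) and Prf1 (0.31), and those that fell were Ccl3 (-0.85), Il2 and Ccl4 (-0.58). Both group means of Ccl5 and Csf2 and the wild-type mean of Ccl22 were under the dim mark. Il2, the growth factor of T cells, measured 9.88, 10.07, 10.39 and 10.14 on the log2 scale in Raptor-deficient samples and 10.84, 10.84, 11.06 and 10.82 in wild-type samples. All Raptor-deficient samples were lower (-0.77, SE 0.11, adjusted p = 0.000209). Ifng, interferon gamma, gave log2 intensities of 5.12, 4.23, 4.82 and 4.70 in Raptor-deficient samples and 5.12, 4.70, 5.49 and 3.70 in wild-type samples, and the groups, both dim, overlapped (-0.03, SE 0.31, adjusted p = 0.957). Gzmb, granzyme B, stood at 7.83, 8.12, 7.54 and 6.79 (log2 intensity) in Raptor-deficient samples, against 7.23, 7.04, 7.21 and 6.20 in wild-type samples, and the groups overlapped (0.65, SE 0.28, adjusted p = 0.11). Gzmb was called higher without Raptor-deficient replicate 4 (0.91, adjusted p = 0.0152) and with all 24 samples in the fit (adjusted p = 0.0388). Il4, the cytokine of type 2 helper cells, had log2 intensities of 4.19, 4.22, 4.0 and 4.17 in Raptor-deficient samples, against 4.08, 4.11, 4.20 and 4.08 in wild-type samples, and all samples were dim (0.03, SE 0.07, adjusted p = 0.826).

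Of 48 early activation transcription factor genes 28 rose and 4 fell, with a median of 0.36, and 27 and 4 without replicate 1 of both groups. Gata3, the factor of type 2 helper cells, measured 7.76, 7.12, 7.85 and 7.34 on the log2 scale in Raptor-deficient samples and 6.18, 5.90, 6.17 and 6.49 in wild-type samples. Raptor-deficient samples were all above wild-type samples (1.33, SE 0.16, adjusted p = 8.86e-05). Tbx21, or T-bet, the factor of type 1 helper cells, gave log2 intensities of 6.05, 6.29, 7.0 and 5.58 in Raptor-deficient samples and 8.10, 8.61, 8.35 and 6.80 in wild-type samples. Its spread was wide, and Raptor-deficient replicate 3 lay above wild-type replicate 4, so the groups overlapped (-1.73, SE 0.36, adjusted p = 0.00379), with an adjusted p of 0.0251 without replicate 1 of both groups. Bcl6, the factor of follicular helper cells, stood at 8.74, 8.72, 8.53 and 8.71 (log2 intensity) in Raptor-deficient samples, against 7.72, 7.24, 7.34 and 7.38 in wild-type samples, and the groups did not overlap (1.25, SE 0.10, adjusted p = 3.68e-06). Cish, a target and brake of STAT5 (1.15, SE 0.08, adjusted p = 1.15e-06), Stat5a (0.94, SE 0.08, adjusted p = 4.54e-06) and the receptor-induced Nr4a2 (1.5, SE 0.11, adjusted p = 1.37e-06) rose. Beside Tbx21, those that fell were Batf (-0.61), Nfatc2 (-0.56) and Fosl1 (-0.43). Myc, which drives growth after activation, had log2 intensities of 11.60, 11.78, 11.81 and 11.69 in Raptor-deficient samples, against 11.21, 11.20, 11.31 and 11.13 in wild-type samples. All Raptor-deficient samples were higher (0.51, SE 0.08, adjusted p = 0.000371). Irf4, a factor that scales with receptor signal, measured 10.34, 10.16, 10.38 and 10.20 on the log2 scale in Raptor-deficient samples and 10.46, 10.57, 10.54 and 10.30 in wild-type samples, and the groups overlapped (-0.20, SE 0.08, adjusted p = 0.116). With a trended robust prior Irf4 was called lower (adjusted p = 0.0259). Prdm1, or Blimp-1, gave log2 intensities of 5.07, 5.11, 4.65 and 4.96 in Raptor-deficient samples and 5.18, 5.06, 5.0 and 4.53 in wild-type samples, and the groups overlapped (0.00, SE 0.14, adjusted p = 0.992). Foxp3, the factor of regulatory T cells, stood at 8.40, 7.99, 8.31 and 8.52 (log2 intensity) in Raptor-deficient samples, against 7.55, 7.22, 7.51 and 7.85 in wild-type samples, and the groups did not overlap (0.77, SE 0.14, adjusted p = 0.00128). Of 8 regulatory T cell markers 5 rose (Ikzf2, Foxp3, Ikzf4, Tnfrsf18 and Il2ra) and 2 fell (Ctla4 and Nrp1), with a median of 0.56 and the same counts without replicate 1 of both groups. The log2 intensities of that list summed to 61.3 to 62.6 in Raptor-deficient samples and 59.1 to 59.9 in wild-type samples. The sort had taken CD25- cells, and the part of regulatory T cells in these genes was not tested.

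Interferon-stimulated genes were higher as a group. Of 32 genes 17 rose and 2 fell, with a median of 0.30, and 14 and 1 without replicate 1 of both groups. With all 24 samples in the fit 11 rose. When dim genes were left out 11 rose too, but then at most 23 of the 32 were still tested. Ifit1, which binds foreign RNA, had log2 intensities of 7.84, 7.49, 7.91 and 7.21 in Raptor-deficient samples, against 6.17, 6.19, 6.09 and 5.11 in wild-type samples. Wild-type replicate 4 was the lowest sample and the groups did not overlap (1.72, SE 0.23, adjusted p = 0.000168). Rsad2, or viperin (1.18, SE 0.13, adjusted p = 5.15e-05), whose wild-type mean was dim, and Stat2 (0.85, SE 0.11, adjusted p = 9.76e-05) rose, and the RNA sensor gene Ifih1 (-0.67, SE 0.09, adjusted p = 0.000177) and Isg20 (-0.54) fell. Of 26 p53 targets and Bcl2 family genes 10 rose and 6 fell, with a median of 0.03. In fits without replicate 1 of both groups, 8 rose and 4 fell, and the lower count was 2 without wild-type replicate 2, 3 without wild-type replicate 4 and 3 without Raptor-deficient replicate 2. Bcl2, which blocks apoptosis, measured 10.58, 10.50, 10.64 and 10.54 on the log2 scale in Raptor-deficient samples and 9.57, 9.64, 9.63 and 9.55 in wild-type samples, and the groups did not overlap (0.96, SE 0.07, adjusted p = 8.51e-07). Cdkn1a, the inhibitor p21, gave log2 intensities of 7.54, 7.49, 7.24 and 7.05 in Raptor-deficient samples and 6.34, 6.67, 6.46 and 6.28 in wild-type samples (difference 0.90, SE 0.12, adjusted p = 0.000172). Trp53inp1 rose too (1.03, SE 0.09, adjusted p = 5.78e-06), and the death receptor gene Tnfrsf10b fell (-0.56, SE 0.08, adjusted p = 0.000406).

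Other genes with wide rises belong to none of these lists. Ccr8, a chemokine receptor of type 2 helper and regulatory T cells, stood at 7.76, 7.19, 7.68 and 7.34 (log2 intensity) in Raptor-deficient samples, against 5.06, 5.27, 5.28 and 5.18 in wild-type samples. Every Raptor-deficient sample was higher (2.29, SE 0.12, adjusted p = 8.85e-08), and the wild-type mean lay under the dim mark. Akr1c18, an enzyme that inactivates progesterone, had log2 intensities of 8.56, 8.16, 8.85 and 8.51 in Raptor-deficient samples, against 5.57, 5.59, 5.81 and 6.45 in wild-type samples (difference 2.67, SE 0.19, adjusted p = 1.02e-06). Trpm1, a cation channel, measured 6.16, 6.19, 6.14 and 6.58 on the log2 scale in Raptor-deficient samples and 4.15, 4.21, 4.33 and 4.35 in wild-type samples, and the wild-type mean was dim (2.01, SE 0.10, adjusted p = 6.84e-08). These groups did not overlap. Lad1 (1.67, SE 0.11, adjusted p = 5.28e-07), ladinin, and Neat1 (1.65, SE 0.11, adjusted p = 4.36e-07), the long noncoding RNA of paraspeckles, rose with groups that did not overlap. Slc15a2, a peptide transporter, gave log2 intensities of 7.54, 8.5, 7.46 and 7.10 in Raptor-deficient samples and 3.68, 5.67, 3.61 and 6.10 in wild-type samples. Wild-type replicates 1 and 3 were far under 2 and 4, and all lay under the Raptor-deficient samples (2.88, SE 0.52, adjusted p = 0.00139). The Slc15a2 difference was also called by limma in unstimulated cells (3.83, adjusted p = 0.0489) and at 8 h (3.22, adjusted p = 0.0362). Its change from 8 h to 24 h was not called (-0.33, adjusted p = 0.964). Wild-type samples spread widely at those times too, with an SD of 2.97 unstimulated and 2.34 at 8 h. Igkj1, a joining segment of the immunoglobulin kappa light chain, stood at 8.67, 7.37, 7.21 and 7.44 (log2 intensity) in Raptor-deficient samples, against 6.07, 5.37, 5.21 and 4.22 in wild-type samples. Raptor-deficient replicate 1 was the highest sample (2.46, SE 0.37, adjusted p = 0.000403). The wild-type means of Slc15a2 and Igkj1 lay under the dim mark.

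Markers of B cells, whose genes include the immunoglobulin loci, were in part higher beside Igkj1. Of 13 B cell markers 5 rose (Pax5, H2-Aa, Cd79a, H2-Eb1 and Cd22), or 38.5%, and 0 fell, beside 11.2% and 16.1% of all genes. The median was 0.32, and 4 rose without replicate 1 of both groups. That count was 3 without wild-type replicate 2, 3 or 4 or Raptor-deficient replicate 2, and 3 after cyclic loess scaling. A group mean at or above the dim mark was measured for 5 of the 13. The log2 intensities of the list summed to 65.6 to 70.6 in Raptor-deficient samples and to 61.2 to 63.4 in wild-type samples. Ms4a1, or CD20, lay between 3.66 and 4.55 in Raptor-deficient samples and between 3.33 and 3.68 in wild-type samples, and was not called. The part of B cells in these differences was not tested. Of 10 erythroid and platelet markers 4 rose (40.0%) and 0 fell, beside the same shares of all genes. Hba-a1 rose most (0.92), with log2 intensities of 7.17, 8.64, 7.21 and 6.92 in Raptor-deficient samples and 6.83, 6.55, 6.37 and 6.52 in wild-type samples. Hba-a2, the brightest marker of the list, was not called by limma (0.10, adjusted p = 0.405). The count of 4 was 2 without replicate 1 of both groups, without Raptor-deficient replicate 1 or 2 and without wild-type replicate 3 or 4. The log2 intensities of the list summed to 53 to 55.5 in Raptor-deficient samples and to 50.1 to 51.7 in wild-type samples. Of 11 measured T cell markers, Cd2 rose (0.81) and Thy1 (-0.39) and Cd6 (-0.21) fell. These are shares of 9.09% and 18.2%, beside 11.2% and 16.1% of all genes. Without replicate 1 of both groups 1 gene was called higher and 1 lower. Cd4 lay between 10.94 and 11.07 in Raptor-deficient samples and between 10.84 and 10.92 in wild-type samples. Cd8a and Cd8b1 were not called (0.03 and -0.11). Of 10 NK cell markers Nkg7 rose (0.69), of 6 CD8 T cell markers Ccl5 rose, and 0 of 12 stromal and 0 of 3 gamma delta T cell markers were called by limma, against 1 of each list at an unadjusted p under 0.05.

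The differences at 24 h were then set against those at 8 h, each gene tested for the difference between the 2 differences in 1 fit of all 24 samples. At 24 h the difference was called lower than at 8 h for 547 genes (3.2%) and higher for 227 (1.33%). Without replicate 1 of both 24 h groups these counts were 487 and 151. In the cell cycle lists, 48 of 50 mitosis genes and 34 of 43 DNA replication genes had a lower difference at 24 h than at 8 h, and 47 and 33 without replicate 1 of both 24 h groups. The median difference of mitosis genes was -2.04 at 24 h and 0.00 at 8 h, and that of DNA replication genes -1.24 and -0.20. The 5 widest such changes were in Mki67 (-4.21, SE 0.27, adjusted p = 1.04e-11), Aurkb (-4.07, SE 0.14, adjusted p = 5.58e-17), E2f8 (-4.0, SE 0.18, adjusted p = 2.63e-14), Birc5 (-3.84, SE 0.18, adjusted p = 3.25e-14) and Cenpf (-3.73, SE 0.18, adjusted p = 5.4e-14). For Mki67 the genotype difference was -4.04 at 24 h and 0.17 at 8 h. At 8 h the wild-type means were 5.15 for Mki67, 3.82 for Aurkb, 4.35 for E2f8, 5.25 for Birc5 and 3.46 for Cenpf. These means and the Raptor-deficient means at 8 h all lay under the dim mark. A lower level in Raptor-deficient cells could hardly show in these 5 genes at 8 h, so their changes mainly restate the falls at 24 h. Spc25 (3.70 in Raptor-deficient and 3.75 in wild-type cells), Cdc45 (4.49 and 4.71) and Mcm10 (4.79 and 4.85) were dim at 8 h too. Uhrf1 (6.32 and 6.34) was not, and of Rfc3 (5.44 and 5.61) only the Raptor-deficient mean was. The list counts and the mitosis median at 8 h carry the same limit for their dim members, whose number was not counted.

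Sterol genes showed the other pattern. Of 21 genes, 11 had a difference that was higher at 24 h than at 8 h and 0 one that was lower, and 8 and 0 without replicate 1 of both 24 h groups. Their median difference was -0.45 at 24 h and -1.12 at 8 h. Msmo1, a sterol oxidase, differed by -1.81 at 8 h (adjusted p = 3.39e-08) and by -0.03 at 24 h, where it was not called (1.78, SE 0.23, adjusted p = 5.76e-06 for the change). Cyp51, chosen after its values were seen, differed by -0.48 at 24 h and -1.92 at 8 h. Glycolysis genes had a median of -0.65 at 24 h and -0.37 at 8 h, with 3 of 20 lower at 24 h than at 8 h and 1 higher, and 3 and 0 without replicate 1 of both 24 h groups. For the mitochondrial ribosome, with medians of -0.42 at 24 h and -0.41 at 8 h, 0 of 65 genes had a change called by limma, and 7 had one at an unadjusted p under 0.05. The other wide changes upward were in Akr1c18 (2.20, SE 0.29, adjusted p = 6.1e-06), Xcl1 (1.85, SE 0.25, adjusted p = 8.1e-06), Ifit1 (1.69, SE 0.30, adjusted p = 0.00043) and Trpm1 (1.56, SE 0.17, adjusted p = 1.82e-07). Akr1c18 averaged 8.52 ± 0.28 at 24 h and 8.19 ± 0.32 at 8 h in Raptor-deficient cells, and 5.85 ± 0.41 at 24 h and 7.73 ± 0.40 at 8 h in wild-type cells (SD, n = 4 each).

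**Figure D5:**
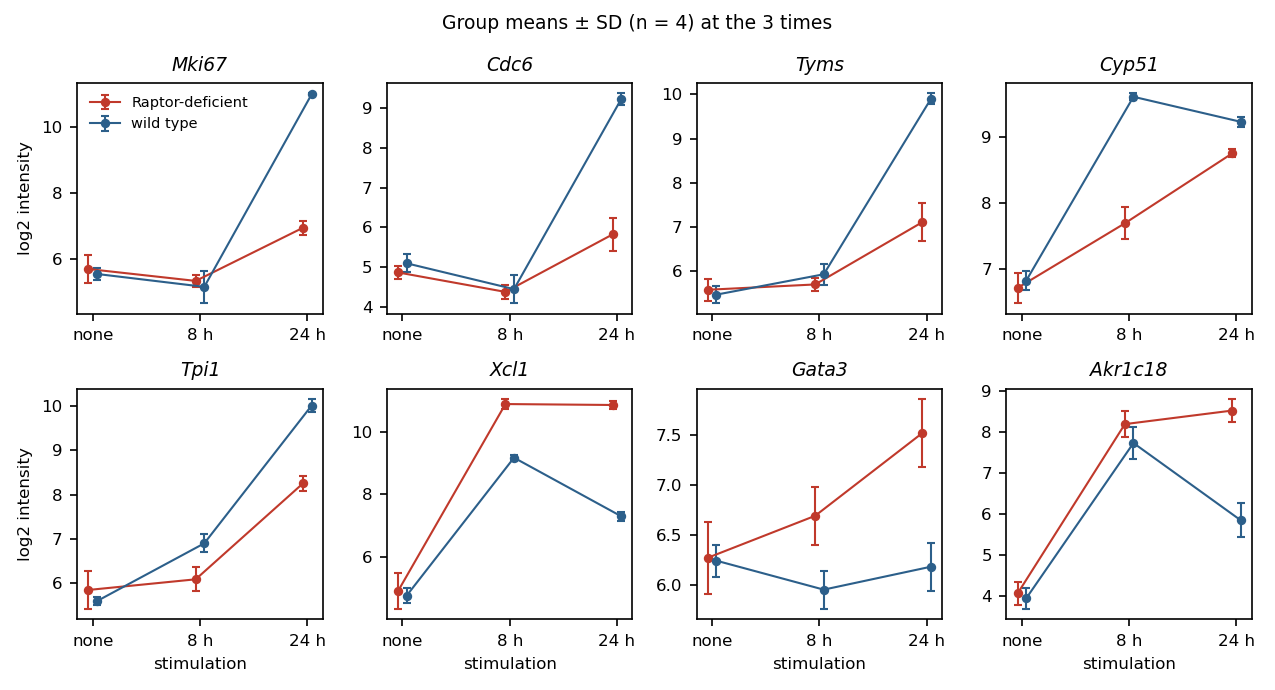
Mean ± SD of 4 samples of log2 intensity in Raptor-deficient (red) and wild-type (blue) cells without stimulation, at 8 h and at 24 h for 8 genes, on axes that do not start at 0. Mki67, Cdc6 and Tyms separate at 24 h, Cyp51 is furthest apart at 8 h, and Xcl1 differs by 1.72 at 8 h and 3.56 at 24 h.

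The comparison with unstimulated cells uses the same 24 h samples. Relative to unstimulated cells, the genotype difference at 24 h was lower for 1370 genes (8.01%) and higher for 900 (5.26%), and for 1150 and 670 without replicate 1 of both 24 h groups. In the mitosis list 46 of 50 and in DNA replication 41 of 43 genes had a lower difference at 24 h, in glycolysis 12 of 20 and in purine and pyrimidine synthesis 15 of 28. Without replicate 1 of both 24 h groups these counts were 45, 40, 10 and 14. Among naive and quiescence genes 12 of 25 had a higher difference at 24 h, and 9 without replicate 1 of both 24 h groups; the median difference of that list was 0.38 at 24 h and -0.05 in unstimulated cells. The widest changes downward were in Mki67 (-4.19, SE 0.27, adjusted p = 9.9e-12), Birc5 (-4.03, SE 0.18, adjusted p = 1.43e-14), Cep55 (-3.92, SE 0.21, adjusted p = 3.95e-13), Esco2 (-3.90, SE 0.17, adjusted p = 7.69e-15) and Pclaf (-3.77, SE 0.18, adjusted p = 3.41e-14). In unstimulated cells both group means of Birc5, Cep55, Esco2 and Pclaf lay under the dim mark, and those of Mki67 (5.69 and 5.54) just above it. Those of Spc25, Cdc45, Mcm10 and Rfc3 were dim too and those of Uhrf1 were not, which also limits the mitosis and DNA replication counts. The widest upward were in Xcl1 (3.42, SE 0.25, adjusted p = 1.35e-10), Akr1c18 (2.55, SE 0.29, adjusted p = 4.85e-07), Ccr8 (2.23, SE 0.21, adjusted p = 2.14e-08), Klrd1 (1.97, SE 0.27, adjusted p = 9.39e-06) and Slfn5 (1.92, SE 0.19, adjusted p = 5.38e-08). Klrd1, a receptor chain of NK cells, differed by 0.32 at 24 h, which was not called, and by -1.65 in unstimulated cells. Slfn5, of the Schlafen family that includes quiescence genes, differed by 1.61 at 24 h and -0.31 in unstimulated cells, with a dim wild-type mean at 24 h.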

How the data were processed

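The values are RMA log2 intensities of Affymetrix probe sets, deposited by the authors, with RMA and Partek 6.5 named per the submitters' processing notes. RNA (20 ng) was amplified before hybridisation, per the labels' protocols. Background correction and quantile normalization of RMA remove shifts shared by a whole array. Of 45141 probe sets, 28898 have 1 gene symbol, 551 several and 15692 none. For each of 17097 genes the brightest probe set over the 24 samples was used. The 8 samples at 24 h were fitted alone with limma 3.58.1 in R 4.3.3 (6 residual degrees of freedom), with Benjamini-Hochberg adjustment over all genes and a threshold of 0.05. Differences between times used 1 fit of 24 samples (18 degrees of freedom). The fits were also run on simulated data with independent noise for each gene and few changed genes. That setting lacks noise shared between genes and the liver transcripts of replicate 1, so it does not vouch for the calls here.

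The lists, the genes named and the comparisons were chosen with earlier results of these data known. The text names the 10 largest rises and falls among called genes that were bright enough in the higher group and had no overlap, up to 4 called members of each of 30 pathway lists with the smallest p, a fixed set, and the 5 largest differences between times each way. Unnamed loci were passed over, and 2 genes of the fixed set were not analysed here. Other genes (the few exceptions in a count, cell type markers, promoter genes, Egln3 and Cyp51) were named after their values were seen. Promoters are RefSeq, of GRCm38.p6. The alternatives were fits without single samples or without replicate 1 of both groups, with a replicate block, with all 24 samples, with the mean of a gene's probe sets, without dim genes, with a trended robust prior or array weights, and after cyclic loess or median centring.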

Additional observations from a re-analysis of the deposited data

Results flagged for a closer look

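In 306 groups of 4 samples, 1 for each named gene and genotype, 26 held a sample whose gap to the nearest of the others was above Dixon's critical share of the range, and chance alone marks about 1 group in 20. Values here are log2 intensities. The liver genes gave 5 of them, all in replicate 1: Alb at 9.11 in Raptor-deficient and 9.02 in wild-type cells, Mup3 at 7.40 in Raptor-deficient and 6.97 in wild-type cells, and Apoa1 at 7.67 in wild-type cells. Replicate 1 was also high for Igkj1 in Raptor-deficient cells (8.67) and for Mki67 (11.02) and Rragd (6.32) in wild-type cells, and low for Hk2 in wild-type cells (9.10). Raptor-deficient replicate 3 was high for Mrpl46 (7.74), Mrpl27 (7.12), Mrpl16 (9.27), Psat1 (9.76) and Slc2a1 (9.16) and low for Bcl6 (8.53). Wild-type replicate 3 was high for Mrpl27 (7.70), Fdps (8.64), Rrm1 (10.47), Rfc3 (8.14) and Il2 (11.06). Raptor-deficient replicate 4 was high for Trpm1 (6.58). Wild-type replicate 4 was low for Ifit1 (5.11), E2f3 (8.22) and Ccl22 (4.99) and high for Satb1 (9.07), and wild-type replicate 2 was high for E2f2 (8.22).

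By limma's test of the difference between the genotype differences, 774 genes differed between 24 h and 8 h. The largest upward changes from 8 h were 2.20 for Akr1c18, 1.85 for Xcl1, 1.78 for Msmo1, 1.69 for Ifit1 and 1.56 for Trpm1. The largest downward changes were -4.21 for Mki67, -4.07 for Aurkb, -4.0 for E2f8, -3.84 for Birc5 and -3.73 for Cenpf. Between 24 h and unstimulated cells 2270 genes differed. The upward changes were led by Xcl1 (3.42), Akr1c18 (2.55), Ccr8 (2.23), Klrd1 (1.97) and Slfn5 (1.92), and the downward ones by Mki67 (-4.19), Birc5 (-4.03), Cep55 (-3.92), Esco2 (-3.90) and Pclaf (-3.77).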

How the results depend on the processing

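The count of 4670 genes called at 24 h was 3893 to 4565 with 1 sample left out, 3940 without replicate 1 of both groups (3693 genes stayed called), 3671 with all 24 samples in the fit (3584 stayed called), 4538 after cyclic loess and 5004 with a trended robust prior. With the replicate number as a block 4655 were called, 4371 of them among the 4670. Deviations of same-numbered samples correlated at r = 0.251, 0.064, 0.171 and 0.105, and each sample correlated best with its own number. Replicate 1 of both groups also shared the liver transcripts. The main fit used no replicate block, and these correlations were not the ground for that. Whether samples of the same number shared a batch was not tested. Genes whose difference was higher at 24 h than at 8 h numbered 227, against 151 without replicate 1 of both 24 h groups, 164 to 212 with 1 sample left out and 447 with only 8 h and 24 h samples in the fit, and the cause was not tested. Of 153 named genes, 7 lost their call with all 24 samples in the fit, among them Suclg2, Nolc1, Tkt and Il2ra. At most 2 lost it under any other alternative. Gzmb gained a call with the replicate block (0.65, adjusted p = 0.00251), and Gzmb, Tfeb and Irf4 each gained one under an alternative given beside their values.

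Only genes not called changed sign. Mtor was at 0.088 with the mean of probe sets. Mlst8 was at 0.123 without replicate 1 of both groups and at -0.075 to 0.053 with 1 sample left out. Ifng came to -0.383 to 0.211 with 1 sample left out. Il4 was at -0.000 without replicate 1 of both groups and -0.008 after cyclic loess. Srebf2 was at -0.028 to 0.097 with 1 sample left out and at -0.086 with the mean of probe sets. Prdm1 was at -0.135 to 0.10 with 1 sample left out, -0.002 with array weights and -0.041 after cyclic loess. With 1 sample left out Alb ran over -0.764 to 0.594, Mup3 -1.279 to 1.248 and Apoa1 -0.730 to 0.872. Mup3 was at -0.080 without replicate 1 of both groups and -0.100 with array weights, where Apoa1 was at -0.055. Dim probe sets, 4 samples a group and samples not said to come from separate mice limit these results.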
